A study of Lemna gibba and Lemna japonica and Spirodela polyrhiza with 12 samples.

Results

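The subject is the M chromosome set of the hybrid duckweed Lemna japonica, accession Lj8627, seen through its small RNA loci. A locus is a stretch of the genome where sequenced small RNAs pile up. Members were all listed loci with a size call field on the 21 chromosomes whose names end in M, and they were chosen by chromosome name alone. They number 15872 of 26073 loci in Lj8627 and of 79572 loci in the whole series.

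The series profiled small RNAs of whole fronds from 4 duckweed accessions in sterile culture, with 3 biological replicates each. All values here come from fronds of Lj8627. Its 3 replicates are pooled in 1 list, so no spread between replicates can be given and no difference was tested. Intervals are 95% intervals for counting error only, since reads carry no molecular identifiers and loci are not biological replicates.

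Lemna japonica arose from a cross of Lemna minor and Lemna turionifera, and its assembly keeps 2 sets of 21 chromosomes apart, named M and T. The labels do not say what the letters stand for, or how reads that match both sets were placed. Reads of M loci therefore need not measure the output of the M chromosomes alone. In plants, Dicer-like enzymes cut double-stranded RNA into small RNAs of set sizes. The 24 nt class is known for guiding DNA methylation of transposons and other repeats, the 21 nt class holds most microRNAs and acts on transcripts, and the 22 nt class can set off the making of further small RNAs. Loci with no size call have too few reads in the range these enzymes cut, and they often stem from breakdown of longer RNAs.

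The M set was led by 24 nt loci in number and by a few microRNA hairpins in reads. Of the 15872 loci, 6771 were called 24 nt, 42.7% (41.9 to 43.4), and 72 were hairpins. The set held 2737536 reads, of which the hairpins took 76.6% and the 24 nt loci 1.68%. All 5 size classes outside hairpins rested on few reads per locus: the median was 6 reads and the smallest locus held 3.

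Hairpins are set apart in what follows, up to the account of microRNA genes. The remaining 15800 loci held 639717 reads. The 24 nt class made up 42.9% of them, the 23 nt class 7.64%, the 22 nt class 8.91%, the 21 nt class 20.2% and loci with no size call 20.4%. For every locus of 21 or 22 nt there were 1.47 loci of 24 nt (1.42 to 1.53). In reads the order was different: 21 nt loci held 44.3%, 22 nt loci 26.8%, loci with no size call 19.1%, 24 nt loci 7.18% and 23 nt loci 2.61%.

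**Figure D1:**
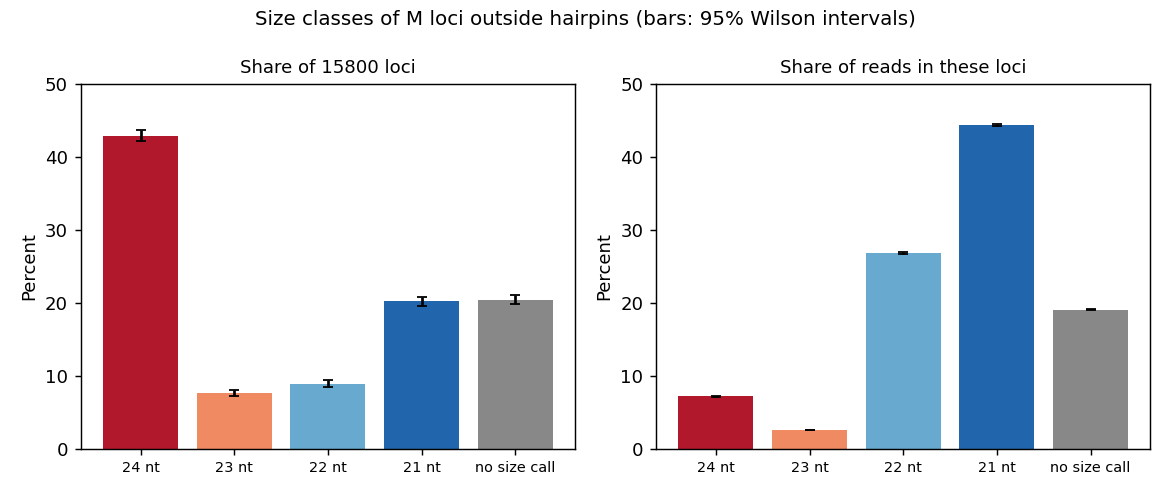
Share of the 15800 M loci outside hairpins (left, percent) and of their reads (right, percent) by size class, with 95% Wilson intervals for counting error as bars. The 24 nt class stands highest in loci at 42.9% but holds 7.18% of reads, while the 21 nt class stands highest in reads at 44.3%.

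The classes differed in how their reads were spread. In the 21 nt class 65.1% of reads came from its 10 deepest loci, and in the 22 nt class 77.1%. In the 24 nt class the top 10 held 4.404%, so its reads came from many loci with few reads each. Only 791 of the 24 nt loci, 11.7%, reached 10 reads, against 29.3% of 21 nt loci and 34.1% of 22 nt loci. With at least 10 reads per locus, 24 nt loci were no longer the largest class: they made up 24.1% of the 3284 loci left, behind loci with no size call at 29.9% and 21 nt loci at 28.5%. The ratio of 24 nt to 21 and 22 nt loci was then 0.559 (0.512 to 0.610), which turns its direction.

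Above 100 reads the set was small and held most reads. There were 442 such loci, 2.80% of those outside hairpins, with 79.5% of the reads. They were 174 loci of 21 nt, 63 of 22 nt, 9 of 23 nt, 4 of 24 nt and 192 with no size call.

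Among 21 nt loci, a pair far ahead of the others held similar reads on different chromosomes. One lay on the minus strand of chr12M from 2997380 to 2998873 with 58488 reads, and the other on the plus strand of chr19M from 8370355 to 8371925 with 57507 reads. They were 1494 and 1571 bp long and took 20.6% and 20.3% of all 21 nt reads outside hairpins. The locus next in reads, on chr18M from 2422994 to 2424723, held 20478. The longest 21 nt locus was another one, 4063 bp on chr3M from 13994592 to 13998654, with 502 reads from neither strand in particular.

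Among 22 nt loci, the one with most reads was also the longest locus of the whole M set. It covered 23427 bp of chr7M, from 17083605 to 17107031, and held 55159 reads from neither strand in particular. It was followed by a row of loci under 5 kb apart, among them one of 6977 bp that began 215 bp further on. With the longest locus counted in, the row held 8 loci over 41.6 kb, 7 of them 22 nt. Its 22 nt loci took 32.7% of all 22 nt reads outside hairpins, nearly all from the longest locus, which alone took 32.2%. The row ended 126.5 kb before the last locus of chr7M. A second 22 nt locus, on the minus strand of chr2M from 13648707 to 13649780, held 47206 reads within 1074 bp. The longest unbroken run of 22 nt neighbours was of another kind, 8 loci over 14624 bp of chr4M from 2717786 to 2732409 with 5500 reads.

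Among 23 nt loci, 4 loci on different chromosomes stood out with nearly the same number of reads. They held 2032 reads on chr19M from 1601300 to 1601868, 1983 on chr13M from 4494605 to 4495031, 1938 on chr12M from 12623623 to 12624052, and 1928 on chr9M from 16557447 to 16557945. The locus next in reads, on chr21M, held 549. The last 3 of these 5 were named after their values were seen. All 9 loci of this class with at least 100 reads lay on a single strand. The placement of reads with many matching sites, not given in the sources used here, was not tested as a part of such near-equal values. The longest 23 nt locus, 1041 bp on chr1M from 12349291 to 12350331, held 26 reads.

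Among 24 nt loci, 1 locus held far more reads than the rest: 1108 on the minus strand of chr14M from 647379 to 647893, within 515 bp. The one next in reads was also the longest of the class, 3498 bp on chr7M from 12004516 to 12008013, with 170 reads from neither strand in particular. It lay in a stretch of chr7M with other dense 24 nt loci. A run of 8 neighbours of 24 nt covered 7646 bp from 11974452 to 11982097 with 277 reads, and a run of 5 covered 6035 bp from 11995946 to 12001980 with 180 reads. Among loci with no size call, the one with most reads was also the longest, 6187 bp on the minus strand of chr2M from 10986998 to 10993184 with 13676 reads. The one next in reads, on chr4M from 16831428 to 16832022, held 3402.

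Listed length followed reads more than size class. The shortest locus outside hairpins was 401 bp and medians lay between 414 and 420 bp in all 5 classes. The most frequent length was 421 bp for 21 nt loci, 422 bp for 22 nt loci, 423 bp for 23 nt loci and 424 bp for 24 nt loci, in each case 400 bp above the size of the class. A median of 414 bp therefore says little of how far the RNAs themselves reach.

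Loci over 600 bp were rare below 10 reads and common above. Among 24 nt loci, 0.870% of the 5980 with fewer than 10 reads exceeded 600 bp, against 38.8% of the 787 with 10 to 99 reads. In the 22 nt class the shares were 0.431% under 10 reads, 38.8% from 10 to 99 reads and 81.0% from 100 reads on, where the median length was 1204 bp. Deep 21 nt loci were shorter, with a median of 750.5 bp and 67.2% over 600 bp. The 23 nt class stayed shorter: 17.0% of its 88 loci with 10 to 99 reads exceeded 600 bp, and the longest of its 9 loci with at least 100 reads was 569 bp.

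Double-stranded precursors give small RNAs of either strand, whereas hairpins and breakdown of a transcript give those of a single strand. Among 24 nt loci, 73.8% (72.8 to 74.8) had reads from neither strand in particular. This share was 63.1% for 23 nt, 67.3% for 22 nt, 61.8% for 21 nt and 35.7% for loci with no size call. How far apart the classes stood depended on depth. With 3 to 4 reads, 66.3% of 24 nt loci, 59.2% of 23 nt, 59.6% of 22 nt, 63.1% of 21 nt and 52.4% of loci with no size call were on neither strand. With 5 to 9 reads it was 74.0% of 24 nt loci, 68.9% of 23 nt, 64.8% of 22 nt, 66.5% of 21 nt and 39.1% of those with no size call. These low numbers of reads cover 5980 of the 6771 loci of 24 nt. With 10 to 29 reads the classes stood further apart: 92.5% of 24 nt loci were on neither strand (90.4 to 94.2), as were 56.2% of 23 nt loci, 78.2% of 22 nt loci, 63.0% of 21 nt loci and 17.8% of loci with no size call.

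With 100 reads or more the picture changed in part. Of the 174 loci of 21 nt, 114 lay on 1 strand, and of the 63 loci of 22 nt, 25 did. Loci with no size call lay on 1 strand in 186 of 192 cases. Of the 4 loci of 24 nt at that depth 3 lay on 1 strand, too few to give a share.

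Single-strand loci with a size call leaned to the plus strand, 1112 plus and 661 minus in the 24 nt class, a ratio of 1.68 (1.53 to 1.85). Those with no size call were nearly even, 1067 plus and 1006 minus, a ratio of 1.06 (0.97 to 1.16). The lean of the 24 nt class sat mainly at 1 number of reads, although those with 10 to 29 reads leaned too, 43 plus and 12 minus. Loci of 24 nt with exactly 5 reads were 376 plus and 76 minus, and over all classes 793 plus and 212 minus. Over all classes, loci with 3 reads were 509 plus and 532 minus. Without loci whose reads are a multiple of 5, the ratio in the 24 nt class was 1.23 (1.10 to 1.37). Over all classes on M, it was 1.13 (1.06 to 1.19), with 2432 plus and 2161 minus. On T chromosomes, the lean over all classes was not bound to these numbers. It gave 374 plus and 132 minus loci at 5 reads, and 2118 plus and 1275 minus where reads were no multiple of 5. At any number of reads, the T lean was largest in 22 nt loci, 655 plus and 141 minus. For 24 nt loci on T the ratio was 1.72 (1.47 to 2.03), beside 1.68 on M. The rule by which strand was called, not given in the sources used here, was not tested as a part of the lean.

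**Figure D2:**
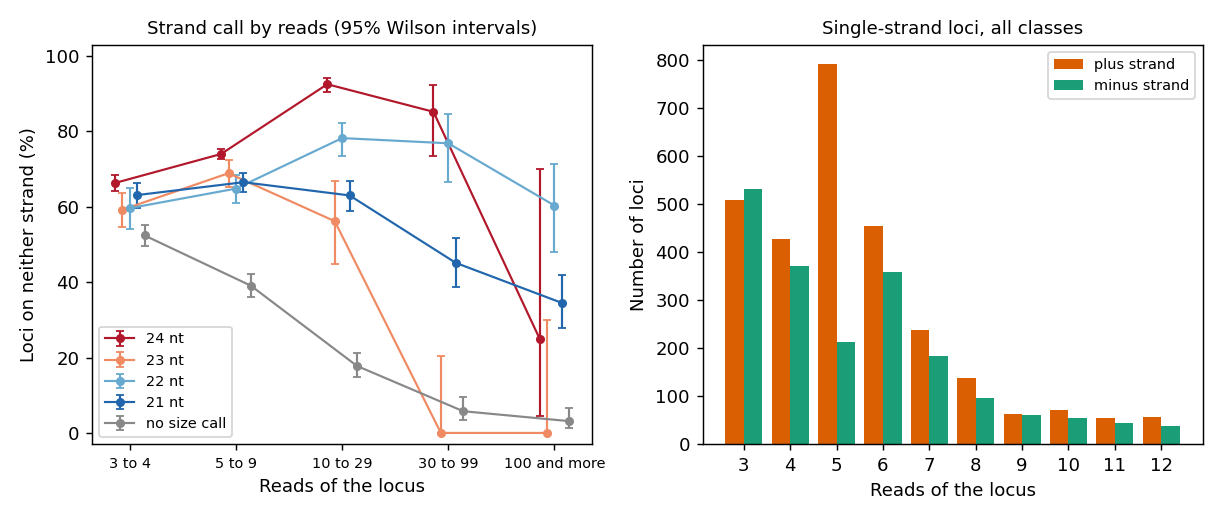
Left: percent of M loci outside hairpins on neither strand by reads of the locus, per size class, with 95% Wilson intervals. Right: number of M loci on the plus and the minus strand by exact number of reads, all classes. Loci of 24 nt with 10 to 29 reads reach 92.5% on neither strand, and the excess of plus loci peaks at 5 reads, with 793 plus and 212 minus.

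Measured from position 1 to the last locus, the 21 M chromosomes spanned 336.9 Mb in all, from 7.61 Mb for chr21M to 26.7 Mb for chr1M. All 5 classes were found on every chromosome, and 24 nt loci were the most numerous class on all 21. Their density averaged 20.1 per Mb and ran from 16.2 on chr11M to 30.1 on chr21M, with a median of 19.7. Next below chr21M came chr19M with 26.9 and chr18M with 23.3, and next above chr11M came chr4M with 16.5.

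The number of loci followed the length of the chromosome, with a Spearman correlation of 0.92 for 24 nt loci over 21 chromosomes. Density had no common relation to span over the classes. Its correlation with span was -0.45 for 24 nt loci, -0.50 for 22 nt loci, -0.27 for 21 nt loci, -0.02 for 23 nt loci and 0.19 for loci with no size call. With 2 Mb at either end left out the correlation for 24 nt loci was -0.38. All points share the same libraries and the same placement of reads.

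The share of 24 nt loci among loci outside hairpins was 53.5% on chr21M (48.8 to 58.2), the highest, and 37.4% on chr4M (34.5 to 40.5), the lowest, with a median of 43.2% over chromosomes. The density of 21 nt loci ran from 7.49 per Mb on chr17M to 13.6 on chr19M, and that of 22 nt loci from 3.11 on chr10M to 5.24 on chr17M. Loci of 23 nt ran from 2.23 per Mb on chr11M to 5.24 on chr18M, and loci with no size call from 7.04 on chr11M to 12.2 on chr1M. So chr11M was lowest in 3 of the 5 classes, while chr17M was lowest in 21 nt and highest in 22 nt loci.

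**Figure D3:**
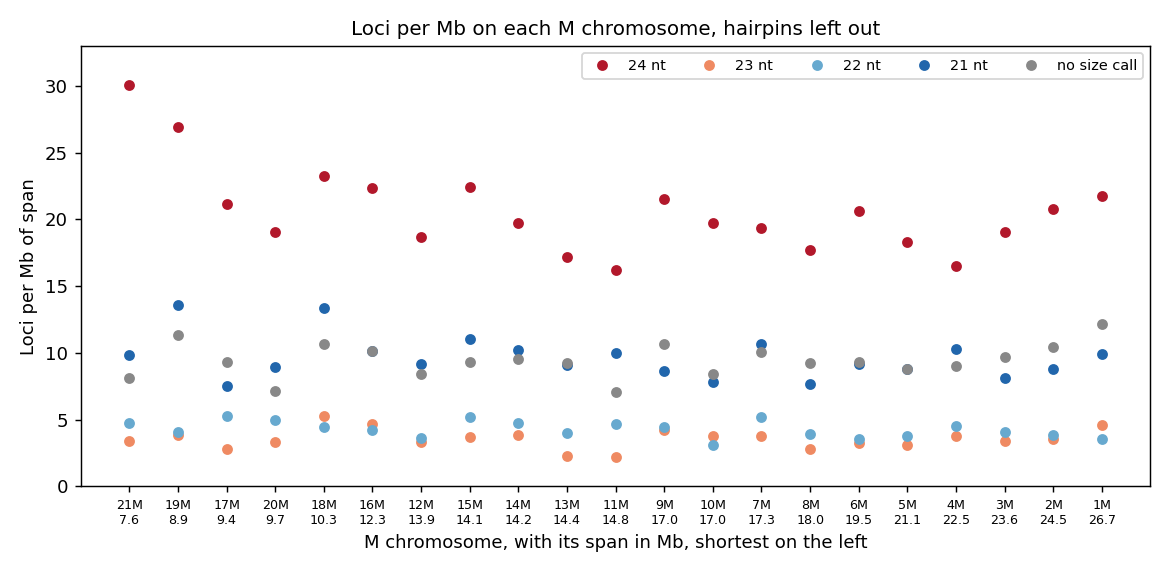
Loci per Mb of span on each of the 21 M chromosomes by size class, hairpins left out, with chromosomes ordered by span from shortest (left) to longest (right). Loci of 24 nt are the densest class on all 21, from 16.2 per Mb on chr11M to 30.1 on chr21M.

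Reads were far less even than loci. With hairpins counted, chr7M held 27.5% of all M reads, chr16M 24.3% and chr5M 11.9%, while chr21M, the only M chromosome without a hairpin, held 0.253%. Outside hairpins, reads per Mb ran from 568 on chr17M to 8730 on chr19M. The locus with 57507 reads named above lies on chr19M.

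Along the chromosomes, small RNA loci were densest at the ends. With the outer 20% of the span at either side taken as ends, 24 nt loci numbered 24.9 per Mb at the ends and 16.9 in the middle, a ratio of 1.47 (1.40 to 1.54). The ends were denser on 20 of 21 chromosomes. The exception was chr11M with 0.90, and chr6M had the highest ratio, 2.57. The ratio was 1.58 for 23 nt loci, with ends denser on 19 chromosomes, and 1.32 for 21 nt loci, with 18 chromosomes. It was lower for 22 nt loci at 1.15, with 11 chromosomes, and for loci with no size call at 1.12, with 14.

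The density of 24 nt loci was highest at the tips, and values above those of the interior reached 3 Mb inward. In the outermost 50 kb at either side, they numbered 91.4 per Mb, from 50 to 100 kb 44.3, from 100 to 250 kb 40.8, and from 250 to 500 kb 33.1. The sides differed from 50 to 100 kb, with 28.6 per Mb at low ends and 60 at high ends. From 100 to 250 kb they gave 40.3 and 41.3. Over both sides, the density went on down to 26.6 from 0.5 to 1 Mb, 24.7 from 1 to 2 Mb, 20.05 from 2 to 3 Mb and 15.9 from 3 to 4 Mb. Beyond 4 Mb it was 16.4, which is no lower than the step before. The outermost 50 kb thus held 5.56 times the density beyond 4 Mb (4.81 to 6.44).

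The 24 nt loci at the tips were also deeper. They held a median of 7.5 reads in the outermost 50 kb and 5 beyond 4 Mb, and 31.8% of them reached 10 reads at the tips against 11.3% beyond 4 Mb. Counting 24 nt loci with at least 10 reads alone, the density was 29.05 per Mb at the tips and 1.85 beyond 4 Mb, a ratio of 15.7 (11.9 to 20.6).

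Nearly all tips held 24 nt loci. Of the 42 chromosome ends, 40 had a 24 nt locus in the outermost 50 kb, with a median of 4 and at most 15. High ends are measured from the last locus, which places a locus at each of them, but low ends are measured from position 1. In the outermost 50 kb both gave much the same density, 89.5 per Mb at low ends and 93.3 at high ends. On 11 of 21 chromosomes the first locus began within 1 kb of position 1. The first locus was 24 nt on 7 chromosomes, 22 nt on 6, 21 nt on 4, without size call on 3 and 23 nt on 1. The last locus was 24 nt on 12, 21 nt on 6 and 22 nt on 3. Among all loci outside hairpins, 42.9% were 24 nt, 20.2% were 21 nt and 8.91% were 22 nt. Of the 376 loci in the outermost 50 kb, 192 (51.1%) were 24 nt, 75 were 21 nt and 50 were 22 nt.

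Other classes were dense at the tips as well. Loci of 22 nt numbered 23.8 per Mb in the outermost 50 kb and 3.76 beyond 4 Mb, a ratio of 6.33 (4.75 to 8.43). Their density fell sharply past this step, to 6.19 per Mb from 50 to 100 kb. It was 6.51 from 100 to 250 kb, 5.14 from 250 to 500 kb and 4.05 from 0.5 to 1 Mb. Loci of 21 nt stood 4.35 times as dense at the tips as beyond 4 Mb (35.7 and 8.22 per Mb), 23 nt loci 3.26 times (10 and 3.07) and loci with no size call 1.93 times (18.1 and 9.39). The part that placement of reads with many matching sites had in this excess was not tested.

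T chromosomes, taken the same way, had 27.6 loci of 24 nt per Mb in the outermost 50 kb and 3.85 beyond 4 Mb. Their ratio of 7.18 (5.51 to 9.36) has an interval that overlaps that of M chromosomes, 5.56 (4.81 to 6.44). Further in, 24 nt loci on M numbered 44.3 per Mb from 50 to 100 kb and 40.8 from 100 to 250 kb. From 250 to 500 kb they numbered 33.1 and from 0.5 to 1 Mb 26.6, against 16.4 beyond 4 Mb. On T the values over the same steps were 9.52, 9.05, 5.90 and 6.10 per Mb, against 3.85. Both sets thus lay above their own interior at each of these steps. Loci of 24 nt with at least 10 reads gave 29.05 per Mb at M tips and 1.85 beyond 4 Mb. On T they gave 1.90 per Mb at the tips, from 4 loci, and 0.275 beyond 4 Mb. The T ratio of 6.93 (2.63 to 18.3) has an interval that overlaps that of M, 15.7 (11.9 to 20.6). Such loci were scarcer over the whole T set, with 109 on T and 791 on M. Differences between the sets were not tested, and how reads that match both sets were placed is unknown here.

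**Figure D4:**
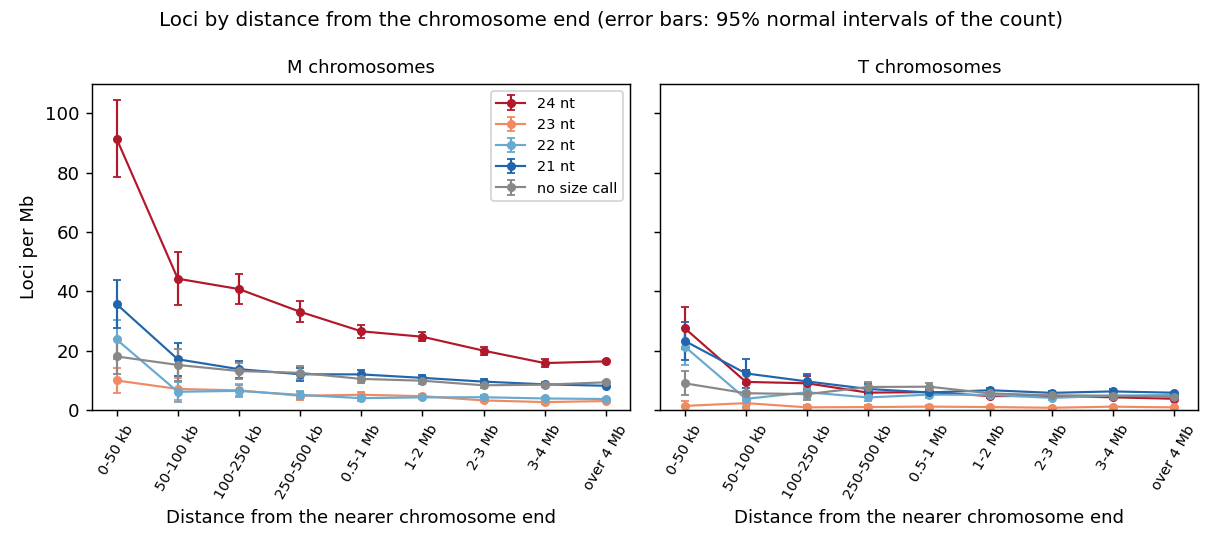
Loci per Mb, hairpins left out, by distance from the nearer chromosome end, for M (left) and T (right) chromosomes, per size class, with 95% normal intervals of the count as bars. Loci of 24 nt reach 91.4 per Mb in the outermost 50 kb of M chromosomes and 27.6 on T chromosomes.

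In 327 full windows of 1 Mb, a window held 19.4 loci of 24 nt on average, with a median of 18 and a range from 2 to 61. The variance over mean was 4.80, where random placement gives about 1. It was 3.63 over the 254 windows centred over 2 Mb from either end. The other classes were more even: 2.07 for 21 nt, 1.82 for 23 nt, 1.67 for 22 nt and 1.66 for loci with no size call. For clustered loci this value also grows with the mean, which was highest for 24 nt.

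The fullest windows for 24 nt loci were the first Mb of chr1M with 61, the first Mb of chr18M with 54, and chr2M from 22000001 to 23000000 with 47. Of the 33 fullest windows 63.6% were centred within 2 Mb of an end, against 22.3% of all windows. Windows with most 21 and 22 nt loci were in part rich in 24 nt loci too. The top one, on chr11M from 4000001 to 5000000, held 36 of these short loci beside 35 of 24 nt, and the first Mb of chr1M held 27 short loci. A window on chr19M from 5000001 to 6000000 held 32 beside 20 of 24 nt, and one on chr7M from 14000001 to 15000000 held 31. The last of these held only 6 loci of 24 nt. The poorest window for 24 nt loci, on chr8M from 9000001 to 10000000, held 2 among 16 loci of all classes.

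Across the 327 windows, numbers of 23 and 24 nt loci went together most, with a Spearman correlation of 0.47, and of 0.40 over the 254 inner windows. Loci of 21 and 24 nt gave 0.35 and 0.23. Loci of 22 and 24 nt gave 0.09 and 0.00, the weakest link of the 24 nt class. Windows share the same libraries, and a window with more sequence that reads can be placed on may hold more of every class.

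Neighbouring loci were a median of 11.2 kb apart, and 13.5% of the 15779 gaps were under 1 kb. The widest stretch with no locus other than a hairpin was 363.6 kb on chr12M, from 9956417 to 10320037; a 22 nt hairpin of 400 reads lies within it. In 4 of the 5 classes, loci of like class lay next to each other more often than their share of the set. The next locus was 24 nt after 48.1% of 24 nt loci (46.9 to 49.3), where 42.9% of all loci were 24 nt. It was 22 nt after 17.1% of 22 nt loci, against 8.91% of all, 21 nt after 24.4% of 21 nt loci, against 20.2%, and without size call after 29.3% of loci with no size call, against 20.4%. For 23 nt loci the share was 8.45% (7.01 to 10.2), an interval that holds their 7.64% of all loci.

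Neighbours under 1 kb apart were more often of like class. The next locus was then 24 nt for 61.7% of 24 nt loci, 22 nt for 39.1% of 22 nt loci, 21 nt for 34.3% of 21 nt loci and without size call for 60.7% of loci with no size call. After 23 nt loci, 10.9% of such close neighbours were 23 nt (6.63 to 17.5), which again holds 7.64%. After a 23 nt locus, at any distance, a 24 nt locus followed in 45.9% of cases. A 24 nt locus followed 38.9% of 21 nt loci, 34.9% of 22 nt loci, 38.2% of loci with no size call and 48.1% of 24 nt loci. Of all loci, 42.9% were 24 nt. These differences were not tested. Of all 24 nt loci 14.3% lay in runs of like neighbours under 1 kb apart, 425 runs in all, of which 86 held at least 3 loci. The share in such runs was 13.2% for 22 nt loci, 13.2% for loci with no size call, 8.83% for 21 nt and 2.32% for 23 nt. It was thus nearly as high in the 22 nt class, which made up 8.91% of loci against 42.9% for 24 nt.

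MicroRNA genes are listed as hairpins, the folded part of a transcript from which a mature strand and the opposite, star strand are cut. The 72 hairpins of the M set held 2097819 reads. The 3 deepest held 75.4% of these and 57.8% of all M reads. The first was a 21 nt hairpin of 212 bp on the minus strand of chr7M, from 423952 to 424163, with 640929 reads. The second, of 21 nt and 253 bp, lay on the plus strand of chr16M from 10407369 to 10407621 and held 629339. The third, of 22 nt and 131 bp, lay on the plus strand of chr5M from 16875103 to 16875233 and held 311262.

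A wide step separated these from the others. Next came hairpins with 51130 reads on chr3M from 14940591 to 14940781 and with 47160 reads on chr12M from 888223 to 888353. In all, 20 hairpins held at least 10000 reads and together took 96.5% of hairpin reads. The median hairpin held 896 reads, 16 held fewer than 100, and the shallowest, on chr5M, held 5.

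Most hairpins were of the 21 nt class, 57 of 72, with 4 of 22 nt and 11 with no size call. The mature strand was 21 nt long in 64, 22 nt in 6 and 20 nt in 2. Hairpins were 101 to 253 bp long with a median of 128 bp, and 9 exceeded 200 bp. The mature strand lay on the 5p arm, the side of the fold transcribed first, in 41 hairpins and on the 3p arm in 31. In reads the 3p arm led with 68.8% of mature reads, but without the 3 deepest hairpins the 5p arm led with 72.2%.

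Mature strands held 91.2% of hairpin reads and star strands 1.29%. In single hairpins the mature share varied widely, with a median of 68.2%. Among hairpins with at least 10000 reads its median was 91.3%, with 47.9% as the lowest, and among the others it was 59.5%. The lowest of the deep ones lay on chr4M from 9440633 to 9440755, where 11282 mature and 10148 star reads were nearly balanced. In 3 hairpins the star strand held more reads than the mature strand. The clearest was on chr17M from 7544360 to 7544477, with 100 mature and 502 star reads. In another, on chr18M from 7963488 to 7963616, mature and star strands held 4 and 6 of 739 reads, so that nearly all its reads came from elsewhere in the hairpin. These hairpins on chr4M, chr17M and chr18M were named after their values were seen.

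**Figure D5:**
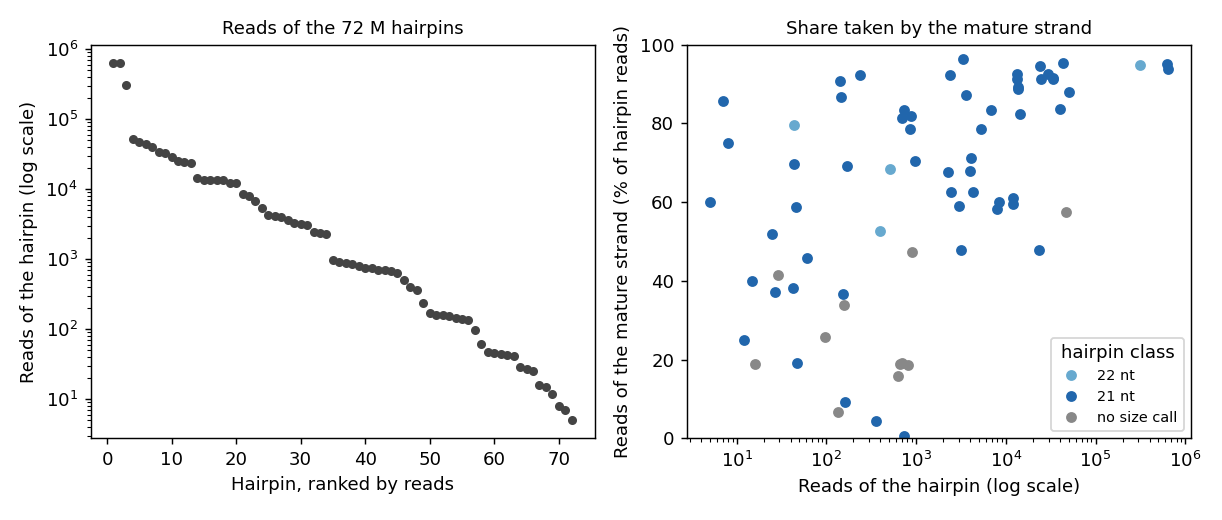
Left: reads of the 72 M hairpins in order of rank, on a log scale. Right: percent of a hairpin's reads on its mature strand against its reads (log scale), coloured by size class. The 3 deepest hairpins hold 640929, 629339 and 311262 reads, and the median mature share is 91.3% among those with at least 10000 reads.

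Hairpins lay on 20 of 21 M chromosomes. The most were 8 on chr1M and 8 on chr12M. Of them 25 lay in the outer 20% at either side and 47 in the middle, a ratio per Mb of 0.798 (0.493 to 1.29). None lay in the outermost 50 kb. These tips cover 2.1 Mb in all and hairpins averaged 0.214 per Mb, so their absence there says little. The interval of the hairpin ratio holds equality and the 1.15 of 22 nt loci. The 1.32 of 21 nt loci lies above it, but its own interval, 1.23 to 1.42, overlaps that of hairpins. The 1.47 of 24 nt loci (1.40 to 1.54) lies above it. The difference between hairpins and other loci was not tested.

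Of the hairpins, 14 lay in 5 groups of neighbours at most 50 kb apart. The largest group held 4 on the minus strand of chr11M, from 10330322 to 10371607, all between 230 and 233 bp. Of these, 3 had nearly the same mature reads, 1543, 1544 and 1532, but very different star reads, 1, 74 and 709. On chr12M, 3 hairpins lay from 845463 to 888353 on the plus strand, with 7969, 8381 and 47160 reads. The first 2 of them had 4636 and 5039 mature reads and 227 star reads each. On chr18M, 3 hairpins with no size call lay from 1830706 to 1862579 on the minus strand with 667 to 810 reads. Mature sequences were not compared, and the way the authors shared out reads among alike hairpins is unknown here, so near-equal mature reads need not measure the output of each hairpin. The groups were picked out after their values were seen.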

How the data were processed

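Small RNA libraries were made from whole fronds of Lj8627, 3 biological replicates, per the labels' protocols. Per the deposited list itself, ShortStack called the loci, from all replicates jointly, on assembly asm202106v1. Tools listed in the submitters' processing notes are deepTools and fastp 0.20.1, with no role; alignment settings and locus thresholds were not given in the sources used here.

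Each locus has a deposited read count, whole and without normalization by the authors. It is pooled over the replicates, so a locus seen in 1 replicate cannot be told from one seen in all 3. Only loci from 3 reads up are listed, and total library depth was not used. Depth was 2737536 reads in M loci. Mature and star lines repeat reads of their hairpin and entered no total.

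Shares carry 95% Wilson intervals, and ratios of counts an interval from the Wilson interval of the share. Spans run from position 1 to the last locus; positions are locus midpoints. Named by rule were the 5 hairpins with most reads, per class the 2 other loci with most reads and the longest, the chromosomes of highest and lowest density per class, and the 3 windows with most 24 nt and with most 21 and 22 nt loci; other loci were named after their values were seen. The set, its classes and these rules were chosen with earlier results of these data known. Alternatives were read minimums of 5 and 10, other ends, windows and denominators. Functions were tested on simulated lists. Software was matplotlib 3.10.9, statsmodels 0.14.6, scipy 1.17.1, numpy 2.4.6, pandas 2.3.3 and Python 3.11.15. No genome sequence was used, so sequences, microRNA families and genes are not analysed here. No sample column was left unused.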

Additional observations from a re-analysis of the deposited data

How the results depend on the processing

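No paired analysis was possible because reads of all 3 replicates are pooled, and for the same reason no replicate was left out. Most listed loci hold few reads, so depth limits every count of loci. With at least 10 reads, the 24 nt share of loci was 23.6%, the ratio of 24 nt to 21 and 22 nt loci turned to 0.559, 24 nt loci numbered 2.35 per Mb, 91.7% of them lay on neither strand, their median length was 503 bp, and the variance over mean was 2.655; the ends to middle ratios were 1.55 for 24 nt and 1.19 for 21 and 22 nt loci. With at least 5 reads, the ratio of classes was 1.39, the share on neither strand 76.9%, the median length 415 bp and the 24 nt ends to middle ratio 1.56. With ends of 10%, 30% or 2 Mb, the ends to middle ratio was 1.80, 1.30 and 1.75 for 24 nt loci and 1.43, 1.18 and 1.40 for 21 and 22 nt loci, above 1 under all alternatives run. Weighted by length, 24 nt loci made up 40.3%. Their share of reads was 5.77% without the 10 deepest loci and 7.18% without hairpins. With 21 nt loci alone as the short class the ratio of classes was 2.12. Without the 2 deepest hairpins, hairpins held 56.4% of reads. Added after seeing the data, leaving out loci whose reads are a multiple of 5 put 74.8% of 24 nt loci on neither strand, and windows over 2 Mb from either end gave a variance over mean of 3.63. Of 38 alternatives over 10 results, 14 stayed within the value's counting interval or, for loci per Mb and the variance over mean, which were given none, within 1.5 times the value. The cause of these changes was not tested further than the change in which loci or positions count.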
